A study of Mus musculus with 16 samples.

Results

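Intermediate filament genes were followed in gastrocnemius muscle, namely the simple epithelial keratins Krt8, Krt18 and Krt19, and the filament genes of muscle Des, Vim, Nes, Synm and Sync. They are 8 of the 24454 genes with counts, and were selected by name because the levels of Krt8 and Krt18 were much higher in HSALR than in control muscle. HSALR mice carry a human skeletal actin transgene with an expanded CTG repeat and serve as a model of myotonic dystrophy type I. The line is homozygous, on the FVB background, and its transgene is expressed only in skeletal muscle, so other tissues affected in patients are outside its reach. Control mice were FVB without the transgene. All animals were 3 months old and received vehicle or AICAR, an activator of AMP-activated protein kinase, at 500 mg/kg over 7 days. There were 5 HSALR mice with vehicle, 5 HSALR mice with AICAR, 3 control mice with vehicle and 3 control mice with AICAR, with 1 library per mouse. The human transgene has no row among the mouse counts, so genotype labels could not be checked by it.

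Intermediate filaments are rope-like polymers that give cells mechanical strength. Keratins assemble only as pairs of a type II chain, such as Krt8, with a type I chain, such as Krt18 or Krt19, and this pair is typical of simple epithelia. In mature muscle fibres the main filament protein is desmin (Des), which ties Z-discs to each other, to organelles and to the membrane. Synemin (Synm) and syncoilin (Sync) join desmin networks to the dystrophin-associated complex, vimentin (Vim) is made by fibroblasts, immune cells and immature muscle cells, and nestin (Nes) marks immature fibres and the neuromuscular and myotendinous junctions.

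Krt8 and Krt18 are neighbours on chromosome 15 of GRCm38, the assembly also called mm10. Krt8 spans chr15:101996711-102004342 on the reverse strand and Krt18 chr15:102028216-102032026 on the forward strand, so that they lie head to head with 23873 bases between them. The other members are spread over the genome, with Krt19 at chr11:100140810-100145926, Des at chr1:75360292-75368579, Vim at chr2:13574311-13582826, Nes at chr3:87971093-87980451, Synm at chr7:67730161-67759742 and Sync at chr4:129287256-129309383. The promoter sequences of Krt8 and Krt18 are shown because their levels moved together, and that of Vim because it was the only one of the members with a TATAAA match. Each holds the 250 bases before the start site in the RefSeq annotation, 5′ to 3′ on the strand of the gene, with motif matches on either strand in capitals. The windows are chr15:102004343-102004592 (reverse strand), chr15:102027966-102028215 (forward strand) and chr2:13574061-13574310 (forward strand).
Krt8: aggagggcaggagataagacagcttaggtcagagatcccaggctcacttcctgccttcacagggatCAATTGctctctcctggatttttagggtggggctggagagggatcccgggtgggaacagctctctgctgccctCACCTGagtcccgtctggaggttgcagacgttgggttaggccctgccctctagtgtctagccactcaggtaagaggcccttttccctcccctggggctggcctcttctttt
Krt18: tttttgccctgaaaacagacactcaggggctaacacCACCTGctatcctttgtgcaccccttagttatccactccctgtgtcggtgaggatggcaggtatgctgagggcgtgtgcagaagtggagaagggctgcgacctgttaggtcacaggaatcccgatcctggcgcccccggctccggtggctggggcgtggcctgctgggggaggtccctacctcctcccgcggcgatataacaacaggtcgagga
Vim: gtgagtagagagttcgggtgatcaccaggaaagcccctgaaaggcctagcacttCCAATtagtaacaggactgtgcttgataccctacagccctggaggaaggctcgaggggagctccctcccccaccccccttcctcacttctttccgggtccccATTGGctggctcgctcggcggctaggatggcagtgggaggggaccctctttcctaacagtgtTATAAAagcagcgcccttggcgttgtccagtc

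Named short motifs were searched on both strands of these windows, and none of the matches overlapped another. The E-box (CANNTG), present in 66.2% of the 32851 mouse promoter windows of this length, had 2 matches before Krt8 and 1 before Krt18. Vim had 1 TATAAA match (12.4% of windows) starting 32 bases before its start and 2 CCAAT matches (33.8%). The GC box (GGGCGG, 32.7%) had 3 matches before Sync, 2 before Des and 2 before Nes. The window of Sync, chr4:129287371-129287620 on the forward strand, lies within the gene span given above. It thus precedes a start site inside that span. E-boxes were also found before Des (2), Synm (1) and Sync (1), and Synm had 1 CCAAT match. The AP-1 motif (TGANTCA, 6.75%), the CArG box (1.47%) and the MEF2 motif (2.92%) had no match in the windows of the 7 members with a sequence. These matches describe letters in a window and are not measured sites. Krt19 was not analysed here in this way.

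Between 64890014 and 81987726 reads per library were counted on genes. Normalized CPM, the unit of all levels, relates the count of a gene to library size after TMM scaling, and levels per kilobase divide this by the deposited gene length. All 8 members passed the filter on low counts, with 15487 genes in all. Krt8 and Krt18 had only 7 to 33 and 11 to 62 reads per control library. Fold changes and adjusted p-values come from quasi-likelihood fits in edgeR, adjusted over all 15487 genes by the Benjamini-Hochberg method. Defining genes of muscle fibres (Acta1, Myh4, Myh1, Ckm and Ttn) summed to between 95293 and 151796 normalized CPM. The level of epidermal genes differed between libraries: Krt14, of basal epidermis, was above 1 normalized CPM in 6 libraries, the control mice S450 (12.6) and S448 (20.7) and the vehicle-treated HSALR mice S452 (6.63), S453 (32.2), S458 (2.98) and S459 (9.50). In the other 10 libraries it was between 0 and 0.0835. Mouse S460 stood apart from the other AICAR-treated HSALR mice for 4.02% of the 15487 genes, counted where its gap to the nearest mouse was over 0.71 of the range of the group, while this share was between 0.517% and 1.498% for each of the other 4 mice.

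Per kilobase, the members differed widely in level. Des was highest, with a median of 1278 normalized CPM per kb over the 16 libraries and a range of 1022 to 1605. Synm followed with a median of 173, Vim with 114, Sync with 38.3 and Nes with 8.13. Krt18 had a median of 3.16 and Krt8 of 2.07, but their ranges, 0.113 to 26.1 and 0.0552 to 21.6, were far wider than those of the other members. Krt19 was lowest at 0.551.

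The largest contrasts between groups were those of Krt8 and Krt18, which selected the members and are therefore described without a test. Krt8 was at 0.0996, 0.268 and 0.122 normalized CPM in the vehicle-treated control mice S445, S446 and S450. In the vehicle-treated HSALR mice S451, S452, S453, S458 and S459 it was at 30.9, 14.5, 13.7, 8.19 and 23.3 normalized CPM. Every HSALR mouse was above every control mouse, and the log2 fold change was 6.76 (SE 1.17). Krt18, a type I partner chain of Krt8, had levels of 0.285, 0.395 and 0.217 in these control mice and of 36.5, 25.9, 23.1, 10.6 and 19.1 in these HSALR mice. Again the groups did not overlap, with a log2 fold change of 6.25 (SE 0.99). Read counts went from 7 to 21 in the control libraries to between 672 and 2221 in the HSALR libraries for Krt8.

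After AICAR, Krt8 was at 0.370, 0.432 and 0.201 normalized CPM in the control mice S447, S448 and S449. In the AICAR-treated HSALR mice S454, S455, S460, S462 and S463 it was at 4.29, 4.13, 39.0, 3.35 and 2.69. Mouse S460 stood far above the other 4 of its group and above all 5 vehicle-treated HSALR mice. Krt18 levels were 0.882, 0.654 and 0.158 in the AICAR-treated control mice and 5.58, 5.14, 31.7, 3.72 and 2.36 in the AICAR-treated HSALR mice. Its highest value in this group was also that of mouse S460, below only one vehicle-treated HSALR mouse. The log2 fold change between HSALR and control mice given AICAR was 4.98 (SE 1.05) for Krt8 and 4.09 (SE 0.89) for Krt18, and 3.42 and 2.89 without mouse S460.

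**Figure D1:**
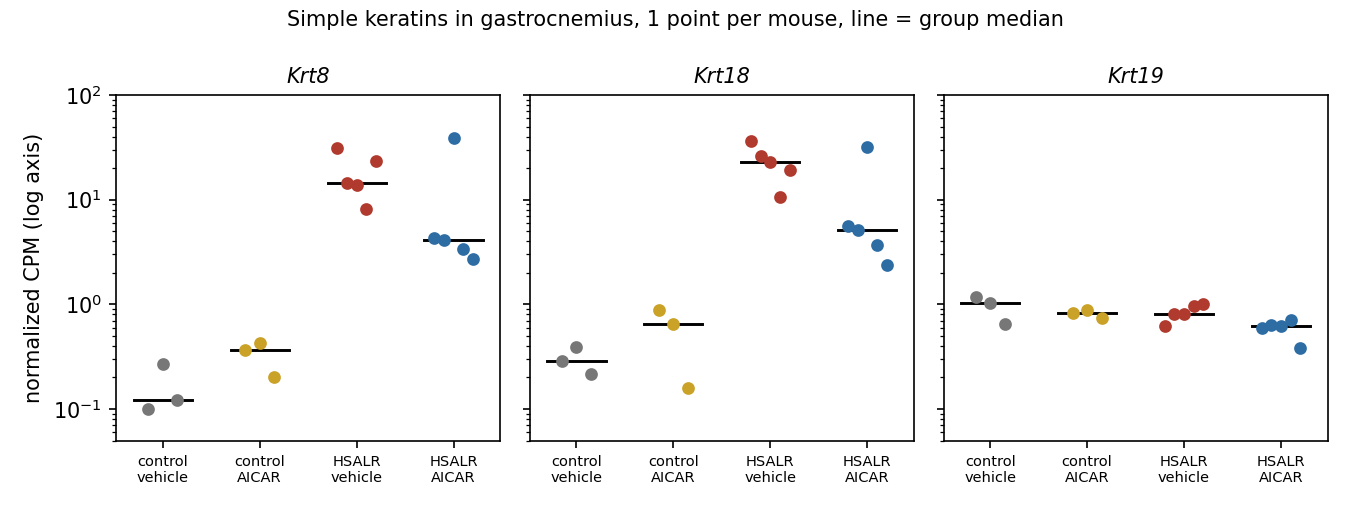
Normalized CPM of Krt8, Krt18 and Krt19 (log axis) in each mouse of the 4 groups, with a line at the group median. For Krt8 and Krt18 both HSALR groups lie above both control groups, and 1 AICAR-treated HSALR mouse (39.0 and 31.7) lies apart from the other 4, while Krt19 stays between 0.382 and 1.17.

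Krt19, the other type I partner of Krt8, did not share this pattern. Its levels were 1.17, 1.03 and 0.652 in vehicle-treated control mice and 0.626, 0.816, 0.815, 0.962 and 1.01 in vehicle-treated HSALR mice, with a log2 fold change of -0.17 (SE 0.22). These groups overlapped, and without the 6 libraries with Krt14 above 1 normalized CPM, which leaves 1 vehicle-treated HSALR mouse, the value was -0.82. In AICAR-treated mice its levels were 0.825, 0.877 and 0.745 in controls and 0.590, 0.631, 0.626, 0.716 and 0.382 in HSALR mice, which did not overlap (log2 fold change -0.47, SE 0.23). It had 25 to 82 reads per library, so its levels carry more counting error than those of the muscle filament genes.

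Sync and Nes followed Krt8 and Krt18 in the size of their log2 fold change between the genotypes after vehicle. Sync, a filament protein that binds dystrobrevin and desmin, was at 56.1, 58.3 and 54.6 in control mice and at 91.3, 89.5, 92.2, 82.8 and 98.3 in HSALR mice. The groups were apart, with a log2 fold change of 0.69 (SE 0.07). Nes was at 44.1, 57.3 and 44.5 in control mice and at 93.3, 69.9, 81.8, 74.4 and 53.5 in HSALR mice, where only S459 fell within the control range (log2 fold change 0.62, SE 0.19). Des, Vim and Synm overlapped between the genotypes, with log2 fold changes of 0.13 (SE 0.08), 0.31 (SE 0.17) and -0.24 (SE 0.12). With scaling to the reference gene Tbp, which moved the median of all genes to 0.28, these values were 0.41, 0.55 and 0.03, that of Krt19 was 0.10 and that of Sync 0.96, and without the 6 libraries with Krt14 above 1 normalized CPM Vim was at 0.07 and Synm at -0.41. Of the 8 members, 3 had groups that did not overlap after vehicle, beside 29.7% of all genes tested, and 4 after AICAR, beside 26.5%. Of all genes, 26.9% passed the threshold between the genotypes after vehicle (15.4% higher and 11.5% lower) and 21.8% after AICAR (12.2% higher and 9.64% lower). Nothing is read from these counts, since the genotype contrasts were used to select the members.

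Markers of other cell types bear on the keratins, which are abundant in epithelia. The summed level of 9 epidermal markers was 2.26 to 141 normalized CPM in vehicle-treated control mice, 2.39 to 165 in AICAR-treated control mice, 3.74 to 298 in vehicle-treated HSALR mice and 2.47 to 3.10 in AICAR-treated HSALR mice. In AICAR-treated against vehicle-treated HSALR mice all 9 were lower, beside 13.0% of all genes. Outside vehicle-treated HSALR mice Krt14 had at most 3 reads except in S450 and S448. It thus passed the filter on low counts through the group where it was high, which partly fixes its call. Between the genotypes after vehicle 0 of the 9 passed with edgeR (0 also at an unadjusted p under 0.05), beside 26.9% of all genes. Their median log2 fold change there was 1.02, with a wide spread within groups. Of the 3 libraries with most Krt8, S460 had Krt14 at 0 and 6 of the 9 markers at 0, with a sum in the range of its group, S451 had Krt14 at 0.0835 and a sum of 3.74, and S459 had Krt14 at 9.50 and a sum of 107. The control mice S450 and S448 had sums of 141 and 165 with Krt8 at 0.122 and 0.432. Without the 6 libraries with Krt14 above 1 normalized CPM, a choice made after seeing the data that leaves S451 as the only vehicle-treated HSALR mouse, the log2 fold change between HSALR and control mice after vehicle was 7.35 for Krt8 and 6.73 for Krt18. With the log2 sum of the epidermal markers as a covariate it was 6.94 and 6.40.

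The markers of simple epithelium (Epcam, Cdh1, Cldn7, Elf3 and Esrp1) summed to between 1.59 and 5.69 normalized CPM in vehicle-treated control mice, and to a median of 3.53 and at most 12.8 in vehicle-treated HSALR mice. After AICAR the sums were 1.00 to 7.15 in control and 0.887 to 1.54 in HSALR mice. Mouse S460 had a sum of 1.27. Of the 4 tested, 0 passed the threshold between the genotypes after vehicle with edgeR (0 also at an unadjusted p under 0.05), beside 26.9% of all genes. Epcam, Cdh1 and Esrp1 were lower in AICAR-treated than in vehicle-treated HSALR mice, beside 13.0% of all genes. The 4 mesothelial markers summed to 0.384 to 0.625 in vehicle-treated control mice and 1.27 to 1.88 in vehicle-treated HSALR mice, without overlap. Msln, the 1 of them that was tested, was higher in HSALR muscle (log2 fold change 1.86, SE 0.29), while Upk3b, Lrrn4 and Wt1 were at most at 0.140 normalized CPM in these groups. Of 3 satellite cell markers, Pax7 was higher in HSALR muscle after vehicle (log2 fold change 1.03, SE 0.22). The part of these cells in the keratin levels was not tested, and in whole muscle a change in the share of cells and a change of RNA per cell cannot be told apart.

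Markers of other cells of muscle bear on Vim, a gene of macrophages, fibroblasts and endothelium, and on Nes. The 3 macrophage markers summed to 38.4 to 53.1 in vehicle-treated control and 54.6 to 69.2 in vehicle-treated HSALR mice. The 4 fibroblast markers summed to 1004 to 1270 and 871 to 1109, which overlapped. Endothelial markers were at 246 to 272 and 162 to 210, smooth muscle markers at 116 to 180 and 83.1 to 110, and Schwann cell markers at 58.3 to 107 and 39.2 to 106 in the same groups. The part of these cells in the levels of Vim and Nes was not tested.

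Krt18 and Krt8 were at comparable levels per kilobase in every HSALR mouse. Per kilobase, the ratio of Krt18 to Krt8 was 1.52, 2.31, 2.17, 1.67 and 1.06 in the vehicle-treated HSALR mice and 1.68, 1.60, 1.05, 1.43 and 1.13 in the AICAR-treated ones. The ratio of mouse S460, at 1.05, was therefore the lowest of its group, but close to that of S463. In control mice the ratios were 3.68, 1.90 and 2.29 after vehicle and 3.07, 1.95 and 1.01 after AICAR, from few reads. The geometric mean was 1.68 with vehicle and 1.35 with AICAR in HSALR mice, a difference that did not pass a two-sided exact permutation test (p = 0.26, adjusted p = 0.67 over 4 tests, where the smallest p possible was 0.0079). In control mice it was 2.52 and 1.83 (exact permutation p = 0.50, adjusted p = 0.67), a comparison of 3 against 3 mice that cannot go below 0.10. Over the 16 libraries Pearson's r of the log2 levels of Krt8 and Krt18 was 0.99, which mostly reflects the distance between the genotypes, and r of the deviations from the group means was 0.90.

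**Figure D2:**
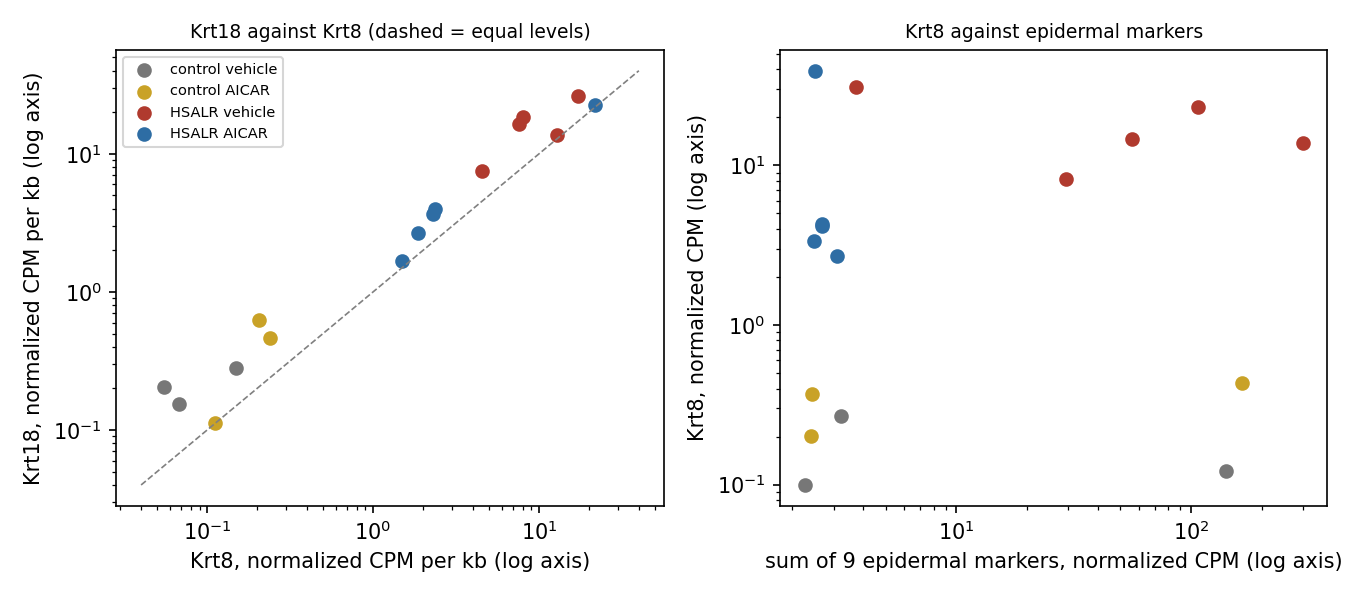
Left, Krt18 against Krt8 in normalized CPM per kb (log axes), 1 point per mouse coloured by group, where the points lie above the dashed line of equal levels, with ratios of Krt18 to Krt8 from 1.01 to 3.68. Right, Krt8 against the sum of 9 epidermal markers (log axes): the highest Krt8 levels, 39.0, 30.9 and 23.3, belong to mice S460, S451 and S459, with a sum of 107 in S459 and of at most 3.74 in the other two, and control mice with sums of 141 and 165 have Krt8 at 0.122 and 0.432.

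The 200 kb on either side of the pair hold 16 other genes of the table, which are the type II keratins Krt73, Krt2, Krt1, Krt77, Krt76, Krt4, Krt79 and Krt78 on the side of Krt8, and Eif4b, Tns2, Spryd3, Igfbp6, Soat2, Csad, Zfp740 and Itgb7 on the side of Krt18. Of the 13 tested, 0 passed the threshold between HSALR and control mice after vehicle with edgeR, and 2 had an unadjusted p under 0.05, while 26.9% of all genes passed. Eif4b, a translation initiation factor gene next to Krt18, was at a mean of 365 in control and 392 in HSALR mice (log2 fold change 0.10), and Krt79 at 1.83 and 4.74 (log2 fold change 1.37). In AICAR-treated against vehicle-treated HSALR mice 6 of the 13 passed, beside 26.6% of all genes: Krt1, Krt77, Krt78, Krt79, Eif4b (log2 fold change -0.19, adjusted p = 0.036) and Igfbp6 (-0.46, adjusted p = 0.019) by edgeR's quasi-likelihood test. The 4 keratins among these are genes of epidermis or its appendages, and all were near 0 in AICAR-treated HSALR mice, as Krt14 was.

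The response to AICAR was tested in each genotype. It was not used for the selection, although the comparison in HSALR mice shares the vehicle-treated HSALR mice with it. In HSALR mice 2 of the 8 members passed the threshold, Des as higher and Nes as lower, beside 26.6% of all genes (13.7% higher and 13.0% lower). In control mice Des and Vim passed, both as higher, beside 13.2% (8.40% higher and 4.77% lower). The median log2 fold change of the members was -0.34 in HSALR and 0.21 in control mice, beside -0.02 and -0.01 over all genes.

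Des rose after AICAR in both genotypes. In HSALR mice its levels were 3582, 3583, 3372, 3436 and 3895 normalized CPM with vehicle and 4509, 4202, 4058, 4263 and 3976 with AICAR. Every AICAR-treated mouse was above every vehicle-treated one, the only member of which this held in HSALR mice, beside 17.7% of all genes. The log2 fold change was 0.23 (SE 0.07, adjusted p = 0.020 by edgeR's quasi-likelihood test). It lost this call without mouse S453 (0.21, adjusted p = 0.054) or S454 (0.21, adjusted p = 0.058), with scaling to Tbp (0.12, adjusted p = 0.47), with the epidermal covariate (0.23, adjusted p = 0.12), and without the 6 libraries with Krt14 above 1 normalized CPM (0.23, adjusted p = 0.33), where S451 alone stood for vehicle. In control mice Des was at 3155, 3133 and 3526 with vehicle and 3989, 3937 and 4920 with AICAR. These groups did not overlap either, and the log2 fold change was 0.39 (SE 0.09, adjusted p = 0.0098 by the same test), a call that was lost with only the groups compared (0.38, adjusted p = 0.11). The difference between the 2 effects, HSALR minus control, was -0.15 (SE 0.11). It is also the genotype contrast after AICAR minus that after vehicle, which selected the members, so for the members such differences are given without a test.

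Vim rose after AICAR in control mice, from 147, 190 and 143 to 246, 289 and 221 normalized CPM (log2 fold change 0.65, SE 0.18, adjusted p = 0.030 by edgeR's quasi-likelihood test). All AICAR-treated control mice were above the vehicle-treated ones. In control mice 2 of the 8 members, Des and Vim, had groups that did not overlap, beside 33.1% of all genes. The call was lost on leaving out any of S445, S450, S447 and S448, with log2 fold changes between 0.53 and 0.67 and adjusted p between 0.054 and 0.11 by the same test, and without the 6 libraries with Krt14 above 1 normalized CPM (0.46, adjusted p = 0.18). The macrophage markers summed to 38.4 to 53.1 with vehicle and 38.7 to 46.2 with AICAR in these mice, and the fibroblast markers to 1004 to 1270 and 782 to 995. In HSALR mice Vim was at 179, 176, 196, 272 and 167 with vehicle and at 238, 306, 245, 203 and 215 with AICAR. Here mouse S458, at 272, stood apart from the other 4 vehicle-treated mice, and the log2 fold change of 0.29 (SE 0.14) did not pass (adjusted p = 0.16), but was 0.43 (adjusted p = 0.020) without S458. The difference between the 2 effects was -0.37 (SE 0.23).

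The ratio of Vim to Des per kilobase overlapped between the treatments. Its geometric mean was 0.0912 with vehicle and 0.0951 with AICAR in HSALR mice (exact permutation p = 0.72, adjusted p = 0.72). In control mice it was 0.0812 and 0.0982 (exact permutation p = 0.40, adjusted p = 0.67).

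Nes was the member with the clearest fall after AICAR in HSALR mice. Its levels were 93.3, 69.9, 81.8, 74.4 and 53.5 normalized CPM with vehicle and 36.3, 35.8, 59.7, 45.5 and 42.2 with AICAR. The groups overlapped through S459 in the vehicle group and S460, whose 59.7 was the highest of the AICAR group. The log2 fold change was -0.77 (SE 0.16, adjusted p = 0.0032 by edgeR's quasi-likelihood test), and the call held in every alternative that was run. The satellite cell markers, of precursors that can express Nes, summed to 3.32 to 4.80 with vehicle and 2.40 to 3.15 with AICAR in these mice, without overlap. In control mice these markers summed to 1.66 to 3.08 with vehicle and 1.11 to 1.66 with AICAR. Their part in the level of Nes was not tested. In control mice Nes levels were 44.1, 57.3 and 44.5 with vehicle and 59.6, 46.1 and 40.1 with AICAR, with means of 48.6 ± 7.52 and 48.6 ± 10.0 (SD, n = 3). The AICAR-treated HSALR mice, with a mean of 43.9 ± 9.73 (SD, n = 5), lay within or near this range. The difference between the AICAR effects of the genotypes was -0.76 (SE 0.27).

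**Figure D3:**
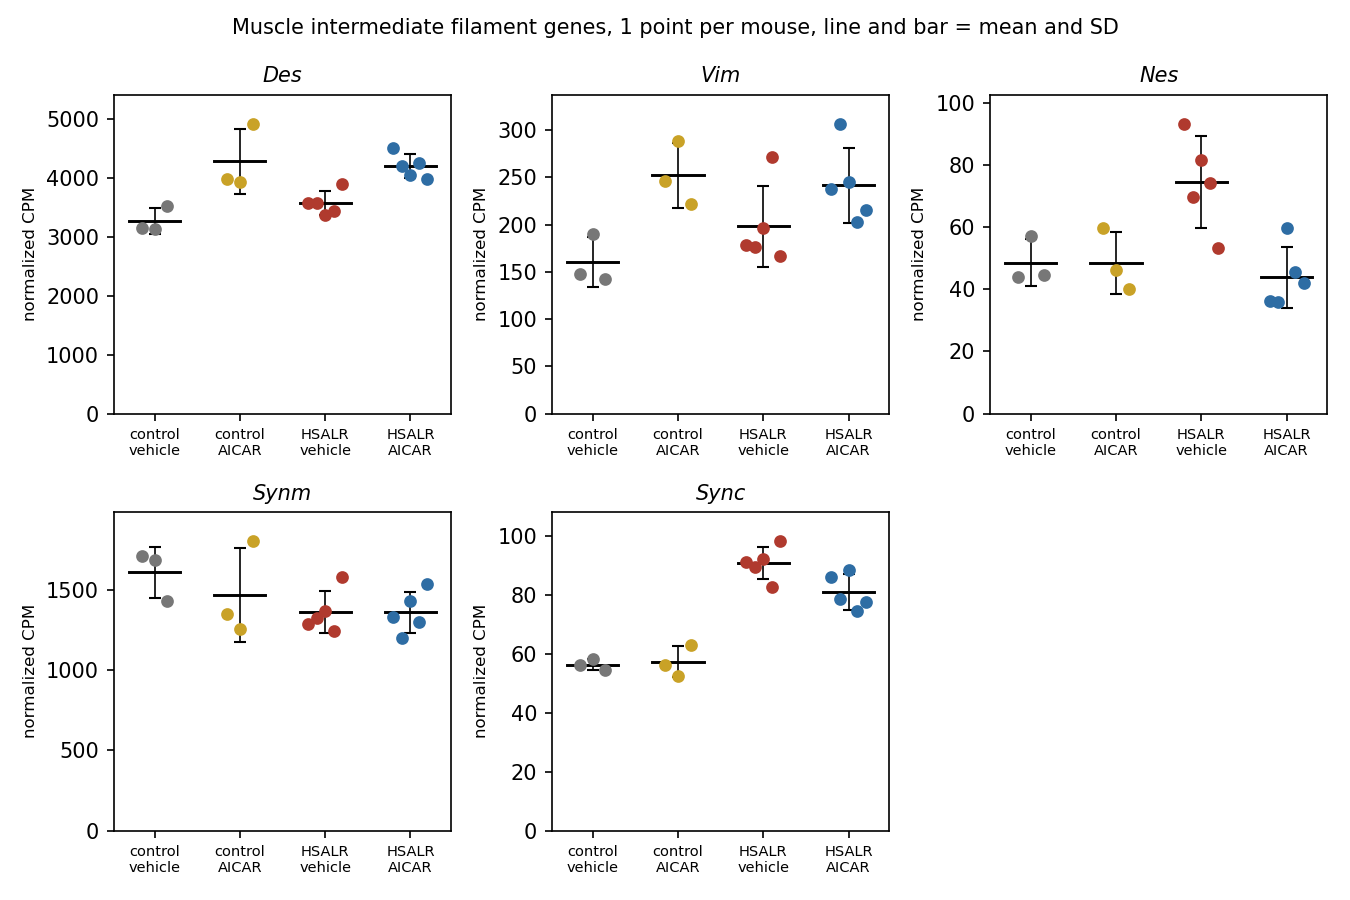
Normalized CPM of Des, Vim, Nes, Synm and Sync (axes from 0) in each mouse, with the group mean and SD. Des is higher after AICAR in both genotypes, Nes is at 53.5 to 93.3 in vehicle-treated HSALR mice and at 35.8 to 59.7 after AICAR, and Sync is at 74.4 or more in every HSALR mouse and at 62.9 or less in every control mouse.

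For Krt8 and Krt18 the outcome in HSALR mice turned on mouse S460. Over all mice the log2 fold change after AICAR was -0.76 (SE 0.64, adjusted p = 0.42) for Krt8 and -1.25 (SE 0.58, adjusted p = 0.13) for Krt18 by edgeR's quasi-likelihood test, and neither passed. Without S460 the values were -2.32 (adjusted p = 0.00022) and -2.45 (adjusted p = 0.00033) by the same test, and every remaining AICAR-treated HSALR mouse was below every vehicle-treated one for both genes. limma with voom, which works on log counts, gave -1.51 (adjusted p = 0.047) and -1.81 (adjusted p = 0.012) with all mice, and DESeq2 gave -0.76 (adjusted p = 0.48) and -1.25 (adjusted p = 0.16). With the epidermal covariate in edgeR they were -1.10 (adjusted p = 0.43) and -1.52 (adjusted p = 0.20). In control mice, at 7 to 33 and 11 to 62 reads, the log2 fold changes were 1.01 (SE 1.47, adjusted p = 0.70) and 0.91 (SE 1.14, adjusted p = 0.65). The difference between the AICAR effects was -1.77 and -2.16 with all mice, and -3.33 and -3.36 without S460.

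In mouse S460 the Krt8 level was 10.8 times and the Krt18 level 7.54 times the mean of the other 4 AICAR-treated HSALR mice. Its Nes level was 1.49 times and its Sync level 1.12 times this mean, both above the range of the others. Krt19 (1.08), Synm (1.07), Vim (1.02) and Des (0.96) lay within it. Among the partner genes, Lmna was at 149 in this mouse against 109 to 123 in the others, and Hspb1 at 101 against 62.5 to 82.1. Hspb7 (732 against 496 to 683), Cryab (827 against 516 to 809), Bag3 (153 against 114 to 148) and Krt80 (2.72 against 1.59 to 2.36) were also highest in it. Dtna (137) and Eppk1 (0.398) were lowest in it, and others such as Jup lay within the range.

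Krt19, Sync and Synm did not pass the threshold in either genotype. Krt19 had a log2 fold change of -0.52 (SE 0.20, adjusted p = 0.065) in HSALR mice, which passed without S450 or S451 and with library size scaling, but was -0.09 (adjusted p = 0.91) without the 6 libraries with Krt14 above 1 normalized CPM. Sync was at 86.0, 78.5, 88.5, 74.4 and 77.6 normalized CPM in AICAR-treated HSALR mice, overlapping the vehicle-treated ones (log2 fold change -0.16, SE 0.06, adjusted p = 0.061), and passed without S460, S458 or S449 (adjusted p between 0.031 and 0.044), with upper-quartile or library size scaling (adjusted p = 0.019 and 0.0041) and with at least 10 counts in every library (adjusted p = 0.049). In control mice given AICAR Sync was at 56.3, 52.5 and 62.9, so that both HSALR groups stayed above both control groups. Synm had means of 1609 ± 156 and 1471 ± 293 (SD, n = 3) in vehicle-treated and AICAR-treated control mice and 1361 ± 130 and 1361 ± 129 (SD, n = 5) in the HSALR mice.

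**Figure D4:**
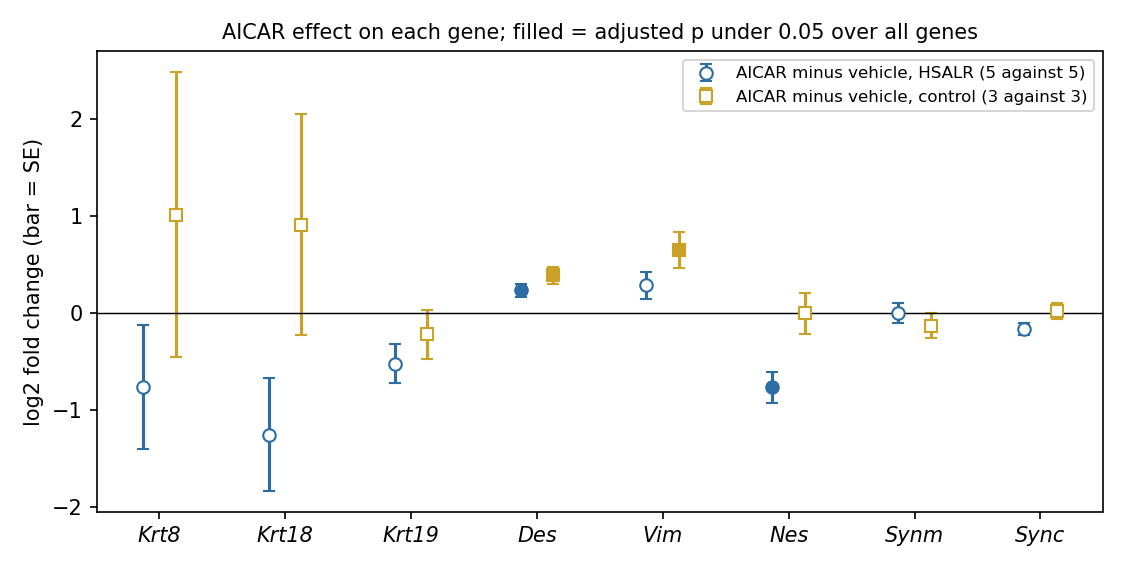
Log2 fold change after AICAR for each of the 8 members in HSALR mice (circles) and control mice (squares), with bars of 1 standard error and filled symbols for adjusted p under 0.05. Des is filled in both genotypes, Nes in HSALR mice and Vim in control mice, and the bars of Krt8 and Krt18 in control mice are 1.47 and 1.14 wide on either side.

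In the order of the group means, Krt8, Krt18 and Sync ran from vehicle-treated HSALR through AICAR-treated HSALR and AICAR-treated control to vehicle-treated control mice. In this order only the second step, between the genotypes, had ranges that did not overlap. For Des and Vim the AICAR-treated groups came first, apart from the vehicle-treated ones for Des but not for Vim. Nes was highest in vehicle-treated HSALR mice, overlapping both control groups through S459, and the other 3 groups overlapped each other. Krt19 and Synm were highest in vehicle-treated control mice, and among their neighbouring groups only the AICAR-treated control and HSALR mice were apart, for Krt19.

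Other genes of the filament system were examined as lists written with earlier results of these data known. Of the other simple keratins (Krt7, Krt20, Krt23 and Krt80), 3 were tested. All 3 were lower after AICAR in HSALR mice, beside 13.0% of all genes, but with few reads for Krt7 and Krt23. Outside vehicle-treated HSALR mice Krt23 had 91 reads in S450, 96 in S448 and at most 2 in any other library. It thus passed the filter on low counts through the group where it was high, which partly fixes its call as lower. No result is read from the count of 3. Krt7, a type II simple keratin, had 32 to 48 reads per library in vehicle-treated and 11 to 16 in AICAR-treated HSALR mice, with no overlap, and 4 to 6 in vehicle-treated control mice. Its log2 fold change was 2.88 (SE 0.53) between the genotypes after vehicle and -1.43 (SE 0.39, adjusted p = 0.013) after AICAR in HSALR mice by edgeR's quasi-likelihood test. Without the libraries with Krt14 above 1 normalized CPM these values were 2.64 and -1.33 (adjusted p = 0.080), and with the epidermal covariate the latter was -0.94 (adjusted p = 0.16). Mouse S460, at 0.228 normalized CPM, was within the range of its group for Krt7. Krt23 had 353 reads in the 5 vehicle-treated and 2 in the 5 AICAR-treated HSALR libraries, and it and Krt80 lost the call with the epidermal covariate (adjusted p = 0.30 and 0.61). Krt23 also lost it with limma voom (adjusted p = 0.13). Krt80 lost it in edgeR without S453, S454, S462 or S463 (adjusted p = 0.091, 0.066, 0.053 and 0.063). Its log2 fold change went from -1.41 to -0.85 without the 6 libraries with Krt14 above 1 normalized CPM.

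Of the 11 other filament genes, 6 were tested. Lmna, which encodes the nuclear lamins A and C, was at 91.9, 97.5 and 105 normalized CPM in vehicle-treated control mice and between 143 and 161 in vehicle-treated HSALR mice (log2 fold change 0.63, SE 0.09). After AICAR it was at 123, 131 and 117 in control and 115, 123, 149, 114 and 109 in HSALR mice. It thus rose in control mice (0.33, SE 0.10, adjusted p = 0.035) and fell in HSALR mice (log2 fold change -0.31, SE 0.08, adjusted p = 0.0068), and the difference of -0.65 (SE 0.12) passed the threshold (adjusted p = 0.029 by edgeR's quasi-likelihood test), as did 0.691% of all genes. The rise in control mice was lost without any of S445, S446, S447, S448 and S449 (adjusted p between 0.052 and 0.13), with upper-quartile or library size scaling (adjusted p = 0.068 and 0.12) and without the 6 libraries with Krt14 above 1 normalized CPM (adjusted p = 0.17). The fall in HSALR mice was -0.23 (adjusted p = 0.11) with the epidermal covariate and -0.24 (adjusted p = 0.34) without the 6 libraries. Leaving out single mice gave the difference an adjusted p between 0.0015 and 0.092, and it was lost for 7 of the 16, with the epidermal covariate (-0.56, adjusted p = 0.076) and without the 6 libraries (-0.58, adjusted p = 0.39). Lmnb1, of the nuclear lamin B1, was lower after AICAR in control mice (log2 fold change -0.51, SE 0.11, adjusted p = 0.0078), but did not pass with scaling to Tbp (-0.29, adjusted p = 0.21), with only the groups compared (adjusted p = 0.072) or without the 6 libraries (adjusted p = 0.14). None of the other 4 tested, Prph, Lmnb2, Bfsp1 and Bfsp2, passed after AICAR in either genotype.

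All 20 anchors, linkers, chaperones and turnover factors were tested, and 11 passed after AICAR in HSALR mice, 1 as higher and 10 as lower, beside 26.6% of all genes (13.7% higher and 13.0% lower), with a median log2 fold change of -0.25 beside -0.02. With the epidermal covariate Dsp, Evpl, Eppk1 and Fam83h lost the call with smaller log2 fold changes (Fam83h from -0.83 to -0.14), while Jup (-0.28 to -0.27, adjusted p = 0.080) and Dtna (0.29 to 0.24) lost it at about the same size. In control mice 2 passed, Dtna as higher and Hspb7 as lower, beside 13.2% of all genes, with a median of -0.14 beside -0.01. Between the genotypes after vehicle 6 were higher and 2 lower, beside 15.4% and 11.5% of all genes, and after AICAR 3 were higher and 4 lower, beside 12.2% and 9.64%. The small heat shock proteins, which bind desmin and help keep it soluble, were among those that passed. Hspb1 was at 41.4, 58.6 and 67.7 normalized CPM in vehicle-treated control mice and at 247, 256, 216, 217 and 165 in vehicle-treated HSALR mice. In AICAR-treated HSALR mice it was at 82.1, 68.0, 101, 74.8 and 62.5, below all vehicle-treated ones. The log2 fold change after AICAR was -1.51 (SE 0.15, adjusted p = 7.1e-06 by edgeR's quasi-likelihood test) in HSALR and -0.27 (SE 0.19, adjusted p = 0.38) in control mice, and the difference of -1.23 (SE 0.24) had an adjusted p of 0.030. This difference lost the call on leaving out any of 10 of the 16 mice, with adjusted p up to 0.089, with the epidermal covariate (-1.21, adjusted p = 0.064) and without the 6 libraries with Krt14 above 1 normalized CPM (-1.57, adjusted p = 0.17).

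Hspb7, a chaperone of heart and skeletal muscle, was at 443 to 827 in vehicle-treated control and 1114 to 1355 in vehicle-treated HSALR mice. After AICAR it was at 289 to 365 in control and 496 to 732 in HSALR mice, lower in both genotypes (log2 fold changes -0.77, SE 0.20, adjusted p = 0.022 and -0.99, SE 0.16, adjusted p = 0.00041 by edgeR's quasi-likelihood test). The fall in control mice did not pass without S450, the mouse at 827 (-0.41, adjusted p = 0.10), without S449 (-0.66, adjusted p = 0.093), with scaling to Tbp (-0.54, adjusted p = 0.12), with only the groups compared (-0.78, adjusted p = 0.10) or without the 6 libraries with Krt14 above 1 normalized CPM (-0.47, adjusted p = 0.16). Cryab, of αB-crystallin, was lower after AICAR in HSALR mice (log2 fold change -0.70, SE 0.13, adjusted p = 0.0014), as was Bag3, a co-chaperone of these proteins (-0.37, SE 0.09, adjusted p = 0.0065). Hspb1 and Hspb7 kept their calls in HSALR mice without the 6 libraries with Krt14 above 1 normalized CPM (adjusted p = 0.0036 and 0.031), as did Bag3 (adjusted p = 0.042), but not Cryab, whose log2 fold change was then -0.76 (adjusted p = 0.053).

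**Figure D5:**
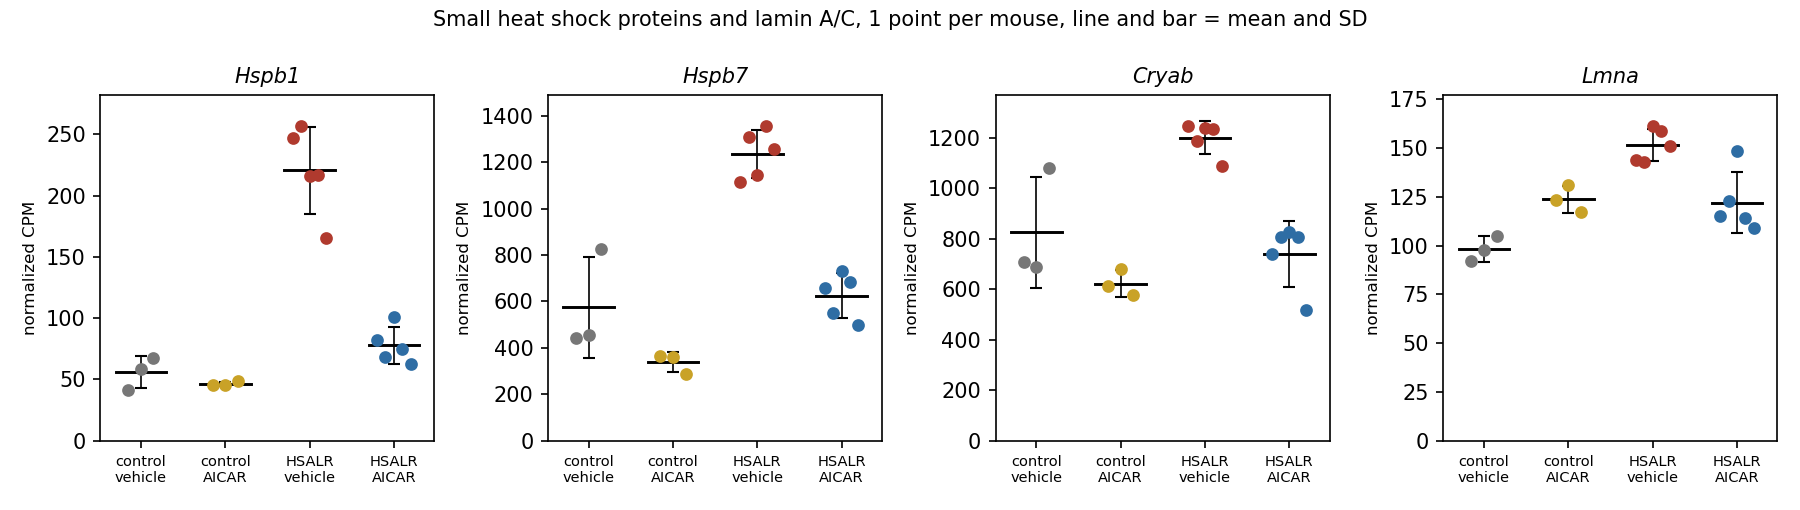
Normalized CPM (axes from 0) of Hspb1, Hspb7, Cryab and Lmna in each mouse, with the group mean and SD. Hspb1 and Hspb7 are higher in all 5 vehicle-treated HSALR mice (165 to 256 and 1114 to 1355) than in any mouse of the other groups.

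Several desmosomal and plakin genes of the same list moved with the epidermal markers. Dsp (desmoplakin), Evpl (envoplakin) and Eppk1 (epiplakin) had log2 fold changes of -4.66, -5.28 and -2.08 after AICAR in HSALR mice, with means of 16.2, 1.44 and 2.49 normalized CPM in the vehicle-treated and 0.640, 0.0345 and 0.585 in the AICAR-treated mice. With the epidermal covariate these became -0.14, -1.45 and -0.07 (adjusted p = 0.77, 0.069 and 0.94 by edgeR's quasi-likelihood test). Dtna, of α-dystrobrevin, which binds Sync and Synm at the membrane, was higher after AICAR in HSALR (log2 fold change 0.29, SE 0.07, adjusted p = 0.0047) and in control mice (0.42, SE 0.09, adjusted p = 0.0053). Dtna did not pass in HSALR mice without the 6 libraries (0.32, adjusted p = 0.16), with the epidermal covariate (0.24, adjusted p = 0.066) or with scaling to Tbp (0.17, adjusted p = 0.19), nor in control mice with only the groups compared (0.41, adjusted p = 0.073).

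For each member the genes with the most similar profile were sought among 13000 genes with a mean count of at least 50, as a description over 16 libraries that share their groups. Over all libraries Krt8 was closest to Krt18 (r = 0.99), Fam171b and Cilp (both r = 0.97), and Krt18 to Krt8, Agmat and Gdf5 (both r = 0.97). With deviations from the group means, which leave out the genotype, Krt8 was closest to Krt18 (r = 0.90), Slc25a24 and Rrad (both r = 0.87), and Krt18 to Slc25a24 (r = 0.92), Krt8 (r = 0.90) and Sema5a (r = 0.89). Rrad, which encodes a small GTPase of muscle, was at 4.71 to 7.19 normalized CPM in vehicle-treated control and 33.5 to 73.4 in vehicle-treated HSALR mice, and in the AICAR-treated HSALR mice at 26.1 in S460 and 6.55 to 8.32 in the other 4. Without S460, a setting added after seeing the data, r of the deviations with those of Krt8 was 0.77 for Krt18, 0.72 for Slc25a24 and 0.57 for Rrad over 15 libraries.

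The muscle members had other companions. Over all libraries Des was closest to Rnf10 (r = 0.95), Vim to Arpc3 (r = 0.95), Synm to Ttn (r = 0.89), Sync to Myo1a (r = 0.97) and Krt19 to Thap6 (r = 0.86). With deviations from the group means the closest were Rnf10 for Des (r = 0.88), Tmsb10 for Vim (r = 0.96), Cmklr1 for Nes (r = 0.97), Eif4g3 for Synm (r = 0.92), Btrc for Sync (r = 0.94) and Osr2 for Krt19 (r = 0.90). Among the members themselves, Synm and Sync had the highest correlation of deviations after that of Krt8 with Krt18 (r = 0.69), and Nes had r = 0.64 with Krt18 and r = 0.55 with Krt8, or 0.43 and 0.23 without S460.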

How the data were processed

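RNA-seq of gastrocnemius muscle from 16 mice was used. The authors powdered the muscle, used part of it for RNA and made stranded mRNA libraries. They mapped single-end reads to mm10 with STAR 2.5.2a, kept 1 location for reads with equally good hits, and counted with QuasR the reads starting in any exon of RefSeq genes. Whether counting used the strand is not given in the sources used here. The deposited values are raw counts per Entrez gene, with a gene length. Of the 24454 identifiers, 24374 were named from RefSeq (GRCm38.p6), which also gave positions and promoters.

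The members and gene lists were chosen with earlier results of these data known. In R 4.3.3, edgeR 4.0.16 was used: TMM scaling, filterByExpr over the 4 groups, glmQLFit without robust estimation and glmQLFTest, with 1 mean per group over all 16 libraries, and Benjamini-Hochberg adjustment over 15487 genes (threshold 0.05). The design of the authors' own edgeR fit is not given in the sources used here. Standard errors are the log2 fold change over the root of F. Genotype contrasts of the members carry no test because they were used in the selection. Ratios per kilobase were compared by two-sided exact permutation tests with adjustment over 4 tests. Profiles were compared by Pearson's r of log2 normalized CPM with a prior count of 2. Genes were named by rule: the 8 members, the 3 most similar genes to each (over all libraries and by deviations), partner genes past the threshold with at most 5 per list and contrast by log2 fold change, and genes within 200 kb of Krt8 and Krt18. Single marker genes, partner genes that did not pass, and Cryab, Bag3 and Dtna for AICAR in HSALR mice were named outside this rule, after their values were seen. Some genes that the rule selects are not reported here.

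Alternative settings comprised DESeq2 1.42.0, voom in limma 3.58.1, scaling by RLE, by the upper quartile, by library size or to Tbp, tests without a filter or with at least 10 counts in every library, robust dispersion, only the groups compared, an epidermal covariate, leaving out each mouse, and, added after seeing the data, leaving out 6 libraries with Krt14 above 1 normalized CPM. The scripts were tested on simulated data. Replicate libraries differed by more than sampling noise (chi-square per degree of freedom 24.0 to 134 over 26 pairs). The depth of 64890014 to 81987726 reads left Krt8, Krt18 and Krt19 with at most 82 reads in control libraries.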

Additional observations from a re-analysis of the deposited data

Results flagged for a closer look

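Krt8 and Krt18 were far higher in 1 AICAR-treated HSALR mouse than in the other 4. Mouse S460 had 39.0 normalized CPM of Krt8, where the others had 2.69 to 4.29, and 31.7 of Krt18, where the others had 2.36 to 5.58. The gap to the nearest mouse was 0.956 and 0.890 of the whole range of the group, above the critical value of 0.71 for 5 samples. The sum of the 9 epidermal markers in this mouse was within the range of 2.47 to 3.10 normalized CPM of its group, and Nes (59.7) and Sync (88.5) were also the highest of the group. Mouse S458 of the vehicle-treated HSALR group stood apart for Vim, with 272 normalized CPM against 167 to 196 in the other 4, a gap of 0.721 of the range. In all, 3 of 20 groups of 5 mice were marked in this way, where the nominal rate of the cut is about 1 in 20. The marks of Krt8 and Krt18 come from the same mouse and from genes that moved together, so they are not separate events. Mouse S460 also stood apart for 4.02% of all genes tested.

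The AICAR effect differed between the genotypes by the test of the difference for Lmna (-0.65, adjusted p = 0.029) and Hspb1 (-1.23, adjusted p = 0.030) with edgeR's quasi-likelihood test. Both are on the log2 scale, HSALR minus control. Each lost the call on leaving out some single mice (adjusted p up to 0.092 and 0.089), with the epidermal covariate (adjusted p = 0.076 and 0.064) and without the 6 libraries with Krt14 above 1 normalized CPM (adjusted p = 0.39 and 0.17).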

How the results depend on the processing

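Fits that leave out single mice changed the calls of Krt8 and Krt18 most: without S460, 5 members instead of 2 passed after AICAR in HSALR mice. Over all mice left out in turn, members that passed ranged from 1 to 5 in HSALR mice, where 3146 to 4301 of all genes passed. In control mice they ranged from 1 to 2, where 1143 to 2186 of all genes passed. For the difference no calls of members are given, because it is built from the genotype contrasts that selected them. Genes that passed ranged from 15 to 371 for the difference (107 with all mice; 371 without S460), 1143 to 2186 for AICAR in control mice (2039 with all; changed by S445, S448 and S449) and 2214 to 3790 between genotypes after AICAR (3379 with all; changed by S447). The log2 ratio of Vim to Des in HSALR mice ranged from -0.0297 to 0.1936 (below 0 without S459 or S455). Log2 fold changes close to 0 changed sign among these fits for Nes (-0.17 to 0.13) and Sync (-0.0502 to 0.071) in control mice and for Synm in HSALR mice (-0.0483 to 0.0579).

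Members past the threshold after AICAR in HSALR mice were 4 with library size scaling (of all genes 1327 were higher and 2962 lower) or limma voom. They were 1 with scaling to Tbp (697 higher and 2071 lower) or the epidermal covariate (2340 genes passed). In control mice they were 1 with upper-quartile scaling (945 of all genes higher and 1149 lower), library size scaling (916 and 890) or only the groups compared (1164 genes passed). Genes past the threshold after AICAR in HSALR mice, 4121 with all libraries, were 2340 with the epidermal covariate and 899 without the 6 libraries. In control mice, 2039 became 1164 with only the groups compared and 697 without the 6 libraries. For the difference, 107 became 381 with scaling to Tbp, 535 with DESeq2, 59 with the epidermal covariate and 0 with edgeR without the 6 libraries, where 1485 genes had an unadjusted p under 0.05 and no other tool was run. Between genotypes, 3379 after AICAR became 1396 with scaling to Tbp, and 4169 after vehicle became 904 without the 6 libraries. That setting was chosen after seeing the data and leaves fewer mice (2, 2, 1 and 5), so that the lone vehicle-treated HSALR mouse is assumed to vary like the other groups.

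Some values changed sign. Synm in HSALR mice was 0.0014 with RLE, 0.0026 with DESeq2 and 0.0775 without the 6 libraries. In control mice Nes was 0.0043 with RLE, 0.20 with Tbp, 0.0026 without a filter and 0.0062 with DESeq2, Sync was -0.0342 with upper-quartile and -0.0293 with library size scaling, and Synm was 0.0598 with Tbp. For the difference, Synm moved from 0.13 to -0.18 with Tbp and Krt19 from -0.30 to 0.41 without the 6 libraries, where the log2 ratio of Vim to Des in control mice went from 0.27 to -0.0169. Except where a setting used fewer mice, the cause was not tested.

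Scaling to Tbp moved the median log2 fold change of all genes to -0.13 after AICAR in HSALR mice, 0.19 after AICAR in control mice, -0.32 for the difference and 0.28 between genotypes after vehicle. With Tbp scaling Des was at 0.12 in HSALR mice, above that median (adjusted p = 0.47 with edgeR's quasi-likelihood test). The share of higher among called genes was 51.3% after AICAR in HSALR mice, but 30.9% with library size and 25.2% with Tbp scaling. In control mice it was 63.8%, but 45.1% with upper-quartile, 50.7% with library size and 94.3% with Tbp scaling. For the difference it was 29.9%, 40.7% with upper-quartile and 1.57% with Tbp scaling, and between genotypes after vehicle 57.2% and 95.4% with Tbp scaling.

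Vim in control mice did not pass with upper-quartile (0.60, adjusted p = 0.050) or library size scaling (0.62, adjusted p = 0.057), by edgeR's quasi-likelihood test. Nes in HSALR mice passed in every setting, from -1.09 to -0.67. Ranking similar genes by Spearman's rho shared 0 to 2 of the 3 genes with Pearson's r. Leaving out libraries with over 1 normalized CPM of epidermal markers was not run, because all 16 exceed it through Krt10. No paired analysis was possible because the mice carry their own numbers and none is shared between groups. Whether libraries came from separate litters or days is not given in the sources used here. The p-values of edgeR set a difference against a spread estimated over the mice of all 4 groups, except where only the groups compared were used. Krt8 and Krt18 had 7 to 62 reads in control libraries, and the AICAR effects on them there had standard errors of 1.47 and 1.14. Reads of overlapping or antisense genes cannot be told apart if counting ignored strand.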
